A study of Homo sapiens with 50 samples.

Results

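HCl-treated and IWP2-treated cultures were compared on day 7 of cardiac differentiation of H1 cells, an established human embryonic stem cell line of wild-type genotype. HCl is a strong acid, and IWP2 is an inhibitor of the enzyme that loads lipid onto WNT proteins, so that they are not secreted. Each group had 2 libraries of RNA sequencing, HCl replicates 1 and 2 and IWP2 replicates 1 and 2. The table of day 7, day 11 and undifferentiated cells lists 57905 genes, of which 14533 reached at least 1 FPKM (fragments per kilobase of exon, scaled to the library's counted reads) in 2 or more of these 4 libraries, and these 14533 genes are described here. The HCl and IWP2 cultures of day 11 (2 libraries each), those of days 3 and 5, and the differentiation control of day 7 are used as further groups. All of these are H1 cultures under the same cardiac differentiation. Undifferentiated H1 cells are used for 1 level. The fit behind every call also held the other groups of that table, which share 1 estimate of spread: controls of day 11, and cultures of days 7 and 11 given NaHCO3 (sodium bicarbonate, a base), IWP2 with NaHCO3, or IWP2 with NaHCO3 and 2-DG, an inhibitor of glycolysis. The labels name no agent for the control, and give no dose, no time of addition and no pH, so the strengths of the acid and of the WNT inhibitor cannot be matched here. Nothing in the labels says that the 2 libraries of a group came from separate cultures. The p-values therefore reflect how far libraries of the same group differ, over all groups fitted, which may be technical spread.

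Heart muscle forms from mesoderm in steps. WNT signalling first drives stem cells into mesoderm and must then fall for mesoderm to become heart progenitors, which is why WNT secretion inhibitors are used in making cardiomyocytes. Progenitors express transcription factors such as NKX2-5, TBX5 and HAND1, and then the genes of the sarcomere, the repeating unit of thick myosin and thin actin filaments, along with calcium channels and pumps that trigger contraction and mitochondria that supply it.

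The 4 libraries held between 17612962 and 19893373 counts. Summed over the 7 heart muscle markers, the level was 870.5 and 1186 FPKM with HCl and 5269 and 4859 FPKM with IWP2, against 358 and 409 FPKM in the differentiation control. Both treatments therefore lay above the control in this sum, with IWP2 further above. In both treatments most of the sum came from MYL7 and MYH6, with levels given further below. HCl did not lie above the control in every heart list. The contractile lists summed to 2856 and 3541 FPKM with HCl, against 1210 and 1308 FPKM in the control. The calcium-handling list summed to 188 and 220 FPKM with HCl, against 294 and 301 FPKM in the control. All 7 heart markers passed the filter and 6 were lower with HCl. The 8 liver and foregut markers summed to 44.3 and 57.8 FPKM with HCl and 156 and 374 FPKM with IWP2, against 1589 and 1614 FPKM in the control. The 6 fibroblast and matrix markers summed to 451 and 418 FPKM with HCl and 326 and 488 FPKM with IWP2. Undifferentiated-cell markers summed to 274 and 254 FPKM with HCl and 97.3 and 100.2 FPKM with IWP2, against 186 and 182 FPKM in the control. Most of this sum came from LIN28A in both treatments, with levels given further below. The 5 neural markers summed to 17.4 and 15.5 FPKM with HCl and 9.67 and 10.7 FPKM with IWP2, with SOX1 at 0 in all 4 libraries. The blood marker PTPRC and the skeletal muscle markers MYOD1 and MYF5 were also at 0 in all 4. Mitochondrially encoded genes took 4.86% and 5.10% of counts with HCl, and 6.46% and 6.19% with IWP2.

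Compared with IWP2, HCl gave lower levels of most sarcomere genes, of calcium-handling genes, of mitochondrial energy genes and of several heart transcription factors, and higher levels of FGF10, FOXC1, CRABP1 and LIN28A and of some genes of matrix and epithelium. A gene was called changed at an adjusted p under 0.05 and a log2 fold change (HCl over IWP2) of at least 1 in size, by the quasi-likelihood test of edgeR over all 18451 genes fitted. Of the 14533 genes, 727 were called higher with HCl (5.00%) and 1042 lower (7.17%), which are the shares to hold the counts below against. A further measure without the size limit, an adjusted p under 0.05, was passed by 7478 genes (51.5%). The median log2 fold change of all 14533 was 0.03. Falls were larger than rises: 364 of the 1042 lower genes (34.9%) and 159 of the 727 higher genes (21.9%) differed by a log2 of at least 2. The filter bears on these counts, since a gene that is silent in one group passes only through the group in which it is high: 1339 genes reached 1 FPKM in exactly 2 of the 4 libraries and 611 of these were called, and among the 3918 fitted genes outside the filter 654 were called. Of the 1769 called genes, 6 higher ones had 0 counts in both IWP2 libraries and 5 lower ones had 0 counts in both HCl libraries.

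**Figure D1:**
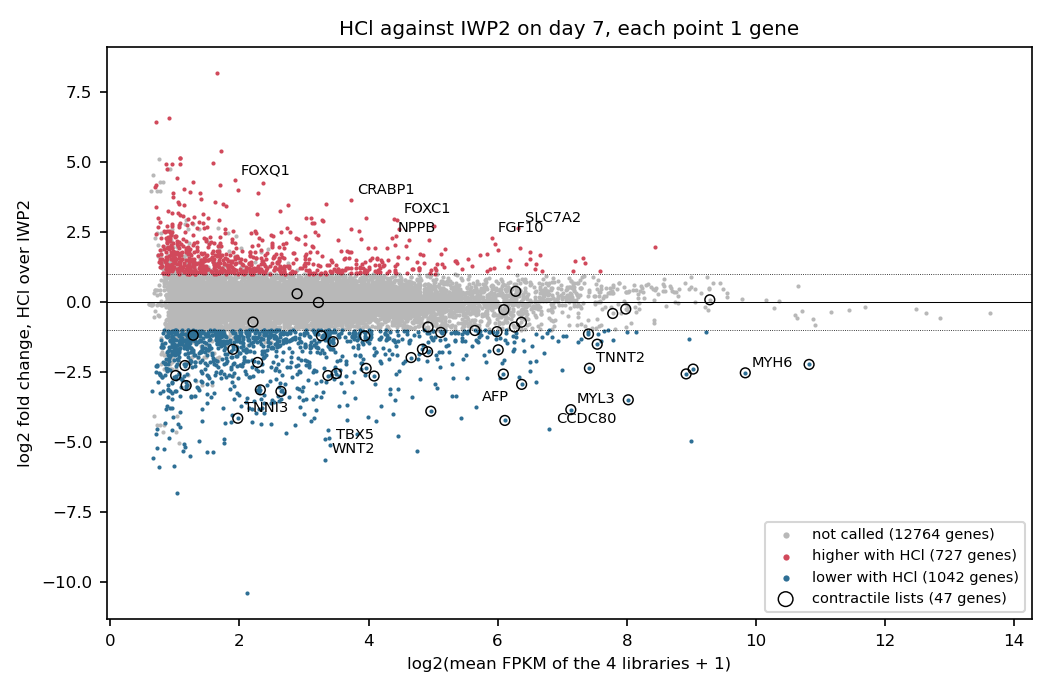
Each point is 1 of the 14533 genes, with log2 of its mean FPKM over the 4 libraries (plus 1) across and its log2 fold change, HCl over IWP2, upward. Called genes are coloured (727 higher, 1042 lower), dotted lines mark a log2 of 1 in size, and circles mark the 47 contractile genes, 35 of which lie among the lower genes and none among the higher.

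The 2 HCl libraries were not alike in the genes that differed. Of the 1042 lower genes, 795 (76.3%) were higher in HCl replicate 2 than in replicate 1, and of the 727 higher genes 537 (73.9%) were lower in replicate 2, whereas 6883 of all 14533 genes (47.4%) were higher in replicate 2. HCl replicate 2 thus lay nearer to the IWP2 libraries in most called genes. Leaving out HCl replicate 1 left 1604 called genes, and leaving out HCl replicate 2 gave 1873. With the 4 libraries fitted alone, without the other groups of the table, 21 of the 234 named genes lost their calls. Among them were MYOM1, MYL3, CSRP3, DES, PLN, CKM, TBX18, AFP, AHSG, SERPINA1, TTR, COL1A1, MASP1 and CTD-2545M3.8, and the adjusted p-values of the 21 ran from 0.0506 (DES) to 0.359 (APOA4).

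The thick filament genes were among the most strongly lowered. 11 of the 13 genes in the myosin list passed the filter, 8 were lower with HCl and 0 were higher, with a median log2 fold change of -2.58. MYH6, the alpha heavy chain of the atrial and early heart, had 220.3 and 330.4 FPKM with HCl, against 1635 and 1468 FPKM with IWP2. Both HCl libraries lay well below both IWP2 libraries, and the log2 fold change was -2.54 ± 0.68 (SE), with an adjusted p of 0.00702. The call of MYH6 was lost without HCl replicate 1 (log2 -2.27, adjusted p = 0.0694) and when the libraries of day 7 were fitted alone (log2 -2.55, adjusted p = 0.0834). MYL7, the atrial regulatory light chain and the most abundant gene of the list, had 571 and 730.0 FPKM with HCl, against 3078 and 2874 FPKM with IWP2 (log2 -2.24 ± 0.23, adjusted p = 1.70e-06). MYL4, the atrial essential light chain, had 111 and 174 FPKM with HCl, against 873 and 776 FPKM with IWP2 (log2 -2.58 ± 0.20, adjusted p = 6.81e-08). The groups did not overlap in either light chain, and neither moved by over 1.5-fold when a library was left out.

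MYBPC3, a myosin-binding protein that brakes cross-bridges, had 3.78 and 10.4 FPKM with HCl, against 134 and 124 FPKM with IWP2. Its log2 fold change of -4.24 ± 0.43 (adjusted p = 1.73e-06) was the largest in size of the list, and reached -5.15 without HCl replicate 2. MYL3, the ventricular essential light chain, had 6.32 and 31.2 FPKM with HCl, against 271 and 249 FPKM with IWP2 (log2 -3.85 ± 0.43, adjusted p = 4.34e-06). The HCl libraries also stood apart from each other, and the log2 was -3.09 without HCl replicate 1 and -5.41 without HCl replicate 2. MYOM1, an M-line protein that cross-links thick filaments, behaved alike, with 1.49 and 6.35 FPKM with HCl, against 58.2 and 54.9 FPKM with IWP2 and a log2 of -3.91 ± 0.41 (adjusted p = 2.30e-06), -3.19 without HCl replicate 1 and -5.30 without HCl replicate 2. MYH7, the beta heavy chain of the mature ventricle, had 1.33 and 9.40 FPKM with HCl, against 12.6 and 11.2 FPKM with IWP2 and was not called (log2 -1.21 ± 0.50, adjusted p = 0.0662). Its HCl replicate 2 lay close to the IWP2 libraries while HCl replicate 1 lay far below, and it was called without HCl replicate 2 (log2 -3.22, adjusted p = 1.61e-07). In bulk RNA, fewer muscle cells and less RNA of these genes per cell cannot be told apart.

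Thin filament genes followed the same direction. Of 13 troponin, tropomyosin and actin genes that passed the filter (15 in the list), 10 were lower with HCl. TNNT2, the cardiac troponin that anchors the complex to tropomyosin, had 44.5 and 68.7 FPKM with HCl, against 293 and 276 FPKM with IWP2 (log2 -2.37 ± 0.16, adjusted p = 2.48e-09). ACTC1, the cardiac actin, had 139.8 and 200 FPKM with HCl, against 903 and 842 FPKM with IWP2 (log2 -2.40 ± 0.20, adjusted p = 1.24e-07). Neither gene overlapped between the groups. TNNI3, the inhibitory troponin of the adult heart, was low in both groups, with 0.20 and 0.45 FPKM with HCl, against 5.96 and 5.11 FPKM with IWP2, yet had the largest fall of the list (log2 -4.16 ± 0.30, adjusted p = 6.90e-13; -4.83 without HCl replicate 2). Its fetal counterpart TNNI1 was abundant and differed less, with 88.8 and 108 FPKM with HCl, against 282 and 263 FPKM with IWP2 (log2 -1.51 ± 0.10, adjusted p = 1.28e-12). TNNC1, the calcium sensor of the thin filament, had 28.7 and 58.1 FPKM with HCl, against 504 and 446 FPKM with IWP2 (log2 -3.50 ± 0.26, adjusted p = 4.51e-08; -4.10 without HCl replicate 2). Not all of the thin filament moved: TPM1, the main tropomyosin, which many other cell types also express, had 624 and 674 FPKM with HCl, against 606 and 591 FPKM with IWP2, and the 95% interval of its log2 difference ran from -0.05 to 0.20. TPM2 was lower by less than the size limit, with 57.7 and 66.1 FPKM with HCl, against 71.1 and 74.9 FPKM with IWP2 (95% interval -0.42 to -0.15).

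Thin filaments are anchored at the Z-disc. Of 23 Z-disc, titin and myosin assembly genes that passed the filter (27 in the list), 17 were lower and 0 were higher. TRIM63, a ubiquitin ligase of muscle, had 0.53 and 1.63 FPKM with HCl, against 9.73 and 9.10 FPKM with IWP2. CRYAB, a small heat shock protein of muscle, had 0.40 and 1.31 FPKM with HCl, against 7.58 and 6.74 FPKM with IWP2. Their log2 fold changes were -3.20 ± 0.25 and -3.15 ± 0.25 (adjusted p = 6.48e-09 and 1.46e-09), and ranged from -2.56 to -4.20 and from -2.48 to -4.21 without HCl replicate 1 or 2. CSRP3, a stretch-sensing LIM protein, had 2.02 and 7.17 FPKM with HCl, against 29.3 and 25.5 FPKM with IWP2 (log2 -2.65 ± 0.39, adjusted p = 5.81e-05; -1.97 without HCl replicate 1 and -3.81 without HCl replicate 2). TTN, the giant spring that spans the sarcomere, changed by less, with 8.28 and 9.35 FPKM with HCl, against 21.1 and 18.8 FPKM with IWP2 (log2 -1.22 ± 0.16, adjusted p = 1.82e-05). DES, the intermediate filament of muscle, had 2.22 and 3.96 FPKM with HCl, against 13.97 and 21.1 FPKM with IWP2 (log2 -2.56 ± 0.26, adjusted p = 1.57e-06). ANKRD1, a stress-responsive titin partner, was high in both groups, with 182 and 200.1 FPKM with HCl, against 265 and 229.6 FPKM with IWP2, and was not called (adjusted p = 0.335). Over the 3 contractile lists, with 55 genes in all, 35 of the 47 that passed the filter were lower (74.5%, against 7.17% of all genes), none was higher, and the median log2 fold change was -1.78, against 0.03 over all 14533 genes. In 34 of the 35 lower genes HCl replicate 2 exceeded HCl replicate 1. The count of lower genes was 30 without HCl replicate 1 and 37 without HCl replicate 2.

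**Figure D2:**
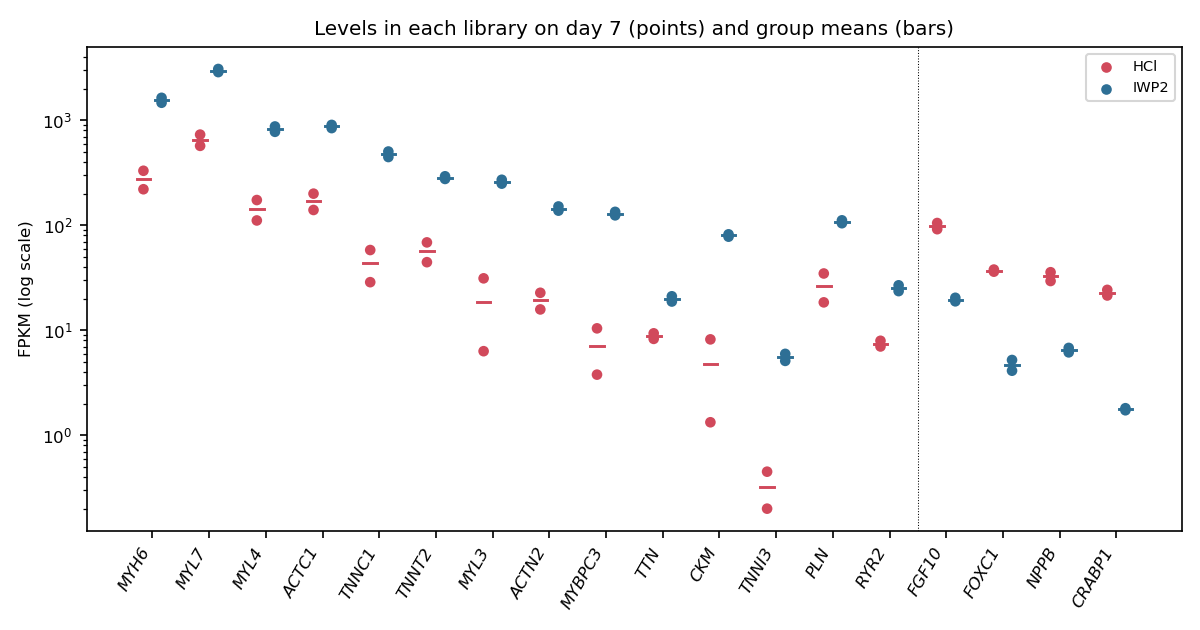
FPKM on a log scale in each library (points) and as the group mean (bars) for 14 contractile, calcium and energy genes left of the dotted line and 4 genes higher with HCl right of it, with HCl left of IWP2 for each gene. The groups are apart in all 18 genes, and the 2 HCl points are far apart in MYL3 (6.32 and 31.2 FPKM), MYBPC3 (3.78 and 10.4 FPKM) and CKM (1.33 and 8.19 FPKM).

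Start-site sequences of contractile genes that were lower together are shown to let the shared letters be seen, for the 4 most abundant lower genes with a RefSeq entry and for the 2 most abundant others with a MEF2 match. Each window runs from 250 bases before to 50 bases after the start, 5′ to 3′ on the gene's strand, from RefSeq on GRCh38.p14. Capitals mark motif matches on either strand. The letters searched were TATAAA for the TATA box, at which the basal machinery is placed, and CATTCC for the MCAT site, which TEAD factors bind. They were AGGTGT for the core site of T-box factors and AGATAA for the site of GATA factors. The MEF2 motif and the CArG box, which SRF binds, were searched by their usual degenerate forms. The windows lie at chr7:44141283-44141582 (minus strand) for MYL7, chr14:23408224-23408523 (minus strand) for MYH6, chr15:34795500-34795799 (minus strand) for ACTC1, chr1:201377631-201377930 (minus strand) for TNNT2, chr11:47352653-47352952 (minus strand) for MYBPC3 and chr1:16017994-16018293 (minus strand) for HSPB7, a small heat shock protein of heart that had 14.03 and 25.4 FPKM with HCl, against 118 and 111 FPKM with IWP2 (log2 -2.58 ± 0.20, adjusted p = 8.54e-08).
MYL7: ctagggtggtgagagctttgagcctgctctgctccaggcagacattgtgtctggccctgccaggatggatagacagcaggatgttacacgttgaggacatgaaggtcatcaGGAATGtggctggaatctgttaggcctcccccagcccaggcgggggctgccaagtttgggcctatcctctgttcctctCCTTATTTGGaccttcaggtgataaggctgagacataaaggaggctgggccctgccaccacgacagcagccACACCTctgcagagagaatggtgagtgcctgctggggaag
MYH6: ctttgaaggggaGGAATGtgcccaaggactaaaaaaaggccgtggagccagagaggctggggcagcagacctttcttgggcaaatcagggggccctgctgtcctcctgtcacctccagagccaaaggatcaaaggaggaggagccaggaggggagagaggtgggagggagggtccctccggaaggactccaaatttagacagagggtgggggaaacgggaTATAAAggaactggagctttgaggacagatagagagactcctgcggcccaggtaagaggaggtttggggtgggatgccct
ACTC1: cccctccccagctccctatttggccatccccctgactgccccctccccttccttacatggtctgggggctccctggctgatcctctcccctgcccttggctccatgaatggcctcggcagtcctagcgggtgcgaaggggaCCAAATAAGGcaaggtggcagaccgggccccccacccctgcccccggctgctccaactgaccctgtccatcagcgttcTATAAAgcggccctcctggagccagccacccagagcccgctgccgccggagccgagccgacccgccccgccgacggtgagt
TNNT2: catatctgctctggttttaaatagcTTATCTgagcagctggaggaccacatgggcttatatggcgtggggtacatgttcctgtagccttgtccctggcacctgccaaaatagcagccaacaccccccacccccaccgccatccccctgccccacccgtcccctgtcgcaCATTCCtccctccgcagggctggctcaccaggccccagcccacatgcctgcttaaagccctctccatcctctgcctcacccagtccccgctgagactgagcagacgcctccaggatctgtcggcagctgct
MYBPC3: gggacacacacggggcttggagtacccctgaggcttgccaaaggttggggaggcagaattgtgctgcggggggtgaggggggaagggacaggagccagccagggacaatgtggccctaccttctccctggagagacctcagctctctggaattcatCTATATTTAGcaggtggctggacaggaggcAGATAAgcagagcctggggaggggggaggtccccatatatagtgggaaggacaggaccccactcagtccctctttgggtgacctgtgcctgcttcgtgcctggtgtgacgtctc
HSPB7: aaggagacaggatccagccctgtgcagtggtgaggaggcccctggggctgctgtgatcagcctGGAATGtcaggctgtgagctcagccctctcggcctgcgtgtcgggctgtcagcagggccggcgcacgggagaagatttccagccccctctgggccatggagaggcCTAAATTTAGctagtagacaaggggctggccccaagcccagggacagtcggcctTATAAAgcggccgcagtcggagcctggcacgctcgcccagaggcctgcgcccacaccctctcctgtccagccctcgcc
MYL7 holds MCAT, T-box and CArG matches, MYH6 a TATA box and MCAT, ACTC1 a TATA box and CArG, and TNNT2 a GATA and an MCAT match, while MYBPC3 holds GATA and MEF2 matches and HSPB7 a TATA box, an MCAT and a MEF2 match. RefSeq windows were found for 25 of the 35 lower contractile genes. A MEF2 match was present in 8 of these 25 (32.0%) and in 3.09% of all 27305 windows of the same length, a CArG match in 4 of the 25, against 1.29%, an MCAT match in 9 (36.0%, against 3836 of the 27305) and a GATA match in 7 (28.0%, against 10.5%). The TATA box was in 6 (24.0%, against 12.0%), and the T-box site in 3 (12.0%, against 11.4%). Contractile genes that were not called were not searched. The shares therefore cannot separate being lower with HCl from being a contractile gene. A match is a run of letters in a window, not a bound site.

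Calcium-handling genes, which carry the beat from the membrane to the sarcomere, were lower in 12 and higher in 1 of the 19 that passed the filter (22 in the list), with a median log2 of -1.77. CACNA1D, an L-type calcium channel of the sinus node and atria, had 0.90 and 0.98 FPKM with HCl, against 13.4 and 11.5 FPKM with IWP2 (log2 -3.78 ± 0.17, adjusted p = 2.95e-13). SLC8A1, the sodium-calcium exchanger that removes calcium after each beat, had 4.48 and 9.34 FPKM with HCl, against 73.5 and 65.5 FPKM with IWP2 (log2 -3.37 ± 0.41, adjusted p = 1.10e-05; -4.01 without HCl replicate 2). RYR2, the calcium release channel, had 7.01 and 7.94 FPKM with HCl, against 26.8 and 23.6 FPKM with IWP2 (log2 -1.80 ± 0.13, adjusted p = 1.94e-09). Both libraries of HCl lay below both of IWP2 in each. SLN, an atrial brake on the calcium pump, had 0.50 and 1.82 FPKM with HCl, against 9.13 and 16.1 FPKM with IWP2 (log2 -3.53 ± 0.55, adjusted p = 1.56e-04; -2.82 and -4.69 without HCl replicate 1 and 2). PLN, the other brake on that pump, had 18.4 and 34.7 FPKM with HCl, against 111 and 105 FPKM with IWP2 (log2 -2.07 ± 0.30, adjusted p = 5.30e-05). The pump itself, ATP2A2, had 30.5 and 31.0 FPKM with HCl, against 51.5 and 50 FPKM with IWP2 and its 95% interval of -0.92 to -0.62 stayed above a log2 of -1. STIM1, a sensor of stored calcium found in most cells, was the higher gene (4.04 and 4.33 FPKM with HCl, against 1.70 and 2.17 FPKM with IWP2; log2 1.07 ± 0.13, adjusted p = 8.40e-08), and fell under the size limit without IWP2 replicate 1 (0.91). ITPR1, a calcium release channel of many cell types, had 3.48 and 3.41 FPKM with HCl, against 3.26 and 3.51 FPKM with IWP2 (95% interval -0.26 to 0.22).

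Among sodium and potassium channels and connexins, 5 of 12 (of 23 in the table) were lower and 1 was higher. HCN4, the pacemaker current channel, had 3.02 and 4.28 FPKM with HCl, against 35.6 and 33.9 FPKM with IWP2 (log2 -3.30 ± 0.14, adjusted p = 3.40e-13). KCNIP2, a subunit of the transient outward current, had 3.22 and 5.81 FPKM with HCl, against 39.6 and 35.2 FPKM with IWP2 (log2 -3.11 ± 0.20, adjusted p = 8.36e-10). GJA1, the connexin of ventricle and of many non-muscle cells, went the other way, with 140.2 and 127 FPKM with HCl, against 40.6 and 50.2 FPKM with IWP2 (log2 1.51 ± 0.09, adjusted p = 1.33e-14). In all 3 the 4 libraries fell into separate ranges by treatment.

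Nuclear genes of energy metabolism were lower with HCl in large part, and mitochondrially encoded ones differed by less than the size limit. Of 22 enzymes of the TCA cycle, all above the filter, 11 were lower and 0 higher. IDH3A, the catalytic subunit of the isocitrate step, had 3.07 and 3.86 FPKM with HCl, against 17.6 and 15.9 FPKM with IWP2 (log2 -2.32 ± 0.10, adjusted p = 9.35e-18). MDH1, the malate shuttle enzyme, had 30.1 and 37.5 FPKM with HCl, against 150.1 and 139.6 FPKM with IWP2 (log2 -2.14 ± 0.09, adjusted p = 1.10e-18), and citrate synthase, CS, had 34.3 and 35.1 FPKM with HCl, against 71.2 and 68.0 FPKM with IWP2 (log2 -1.05 ± 0.07, adjusted p = 1.30e-13). In all 3, both HCl libraries lay below both IWP2 libraries.

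Nuclear genes of oxidative phosphorylation were lower in 18 of 38, and the log2 fold change was below 0 in all 38, with a median of -0.98, just under the size limit. ATP5B, the catalytic subunit of ATP synthase, had 277 and 311 FPKM with HCl, against 723 and 692 FPKM with IWP2 (log2 -1.31 ± 0.07, adjusted p = 6.60e-16). CYCS, cytochrome c, had 43.1 and 51.5 FPKM with HCl, against 144 and 129 FPKM with IWP2 (log2 -1.57 ± 0.11, adjusted p = 3.36e-11). The 13 mitochondrially encoded genes had 0 higher and 0 lower members, although 10 of them passed an adjusted p of 0.05 below 0, and their median log2 was -0.33. MT-CO3, a subunit of cytochrome oxidase, had 5787 and 6217 FPKM with HCl, against 9069 and 8496 FPKM with IWP2 (log2 -0.59 ± 0.07, adjusted p = 6.05e-09), which is under the size limit.

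Fatty acid oxidation is the main fuel path of the mature heart. Its list, with the regulators of mitochondrial number, had 12 lower and 1 higher gene of 25 (of 29 in the table). FABP3, the heart fatty acid carrier, had 22.6 and 26.6 FPKM with HCl, against 112 and 103 FPKM with IWP2 (log2 -2.17 ± 0.09, adjusted p = 3.15e-18). PPARGC1A, a coactivator that drives mitochondrial genes, had 3.44 and 5.05 FPKM with HCl, against 19.8 and 18.1 FPKM with IWP2 (log2 -2.20 ± 0.29, adjusted p = 1.89e-05), and ESRRG, an orphan nuclear receptor that works with it, had 0.99 and 1.69 FPKM with HCl, against 10.0 and 9.48 FPKM with IWP2 (log2 -2.92 ± 0.18, adjusted p = 5.09e-10). All 3 were lower in both HCl libraries. LPL, the lipase that frees fatty acids from lipoproteins, had 0.17 and 0.49 FPKM with HCl, against 5.21 and 3.56 FPKM with IWP2 (log2 -3.80 ± 0.26, adjusted p = 2.67e-11; -3.19 and -4.71 without HCl replicate 1 and 2). The higher gene was CD36, a fatty acid receptor also found on other cell types (1.37 and 1.4 FPKM with HCl, against 0.37 and 0.57 FPKM with IWP2; log2 1.53 ± 0.21, adjusted p = 3.45e-07).

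Creatine kinase and energy shuttle genes were lower in 8 of 15 (of 19 in the table). CKM, the muscle creatine kinase, had 1.33 and 8.19 FPKM with HCl, against 82.0 and 77.9 FPKM with IWP2, with a log2 of -4.15 ± 0.41 (adjusted p = 2.30e-06) that was -3.32 without HCl replicate 1 and -5.95 without HCl replicate 2. MB, the oxygen store myoglobin, had 1.53 and 2.16 FPKM with HCl, against 8.33 and 8.22 FPKM with IWP2 (log2 -2.21 ± 0.17, adjusted p = 3.28e-12). Glycolysis was lower in 7 and higher in 1 of 22 (of 26 in the table), among them the insulin-responsive glucose transporter SLC2A4 (1.53 and 1.92 FPKM with HCl, against 4.82 and 4.25 FPKM with IWP2; log2 -1.44 ± 0.17, adjusted p = 2.30e-08) and GAPDH (376 and 409 FPKM with HCl, against 815 and 803 FPKM with IWP2; log2 -1.08 ± 0.08, adjusted p = 3.15e-13). The higher gene of the list was not called without HCl replicate 1 or without IWP2 replicate 1. At the gate between glycolysis and the mitochondrion, PDK4, a kinase that shuts off pyruvate dehydrogenase, had 1.06 and 1.23 FPKM with HCl, against 8.82 and 9.32 FPKM with IWP2 (log2 -3.03 ± 0.12, adjusted p = 1.23e-18). SLC16A1, the transporter that carries lactate together with a proton, had 95.7 and 106 FPKM with HCl, against 97.3 and 92.3 FPKM with IWP2 (95% interval of the log2 difference -0.10 to 0.20). Among 18 (of 29 in the table) genes of proton, bicarbonate and ion exchange, 3 were lower and 1 was higher. Among the lower ones was ATP1B1, a beta subunit of the sodium pump (21.1 and 26.02 FPKM with HCl, against 88.2 and 81.7 FPKM with IWP2; log2 -1.90 ± 0.08, adjusted p = 8.55e-18).

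**Figure D3:**
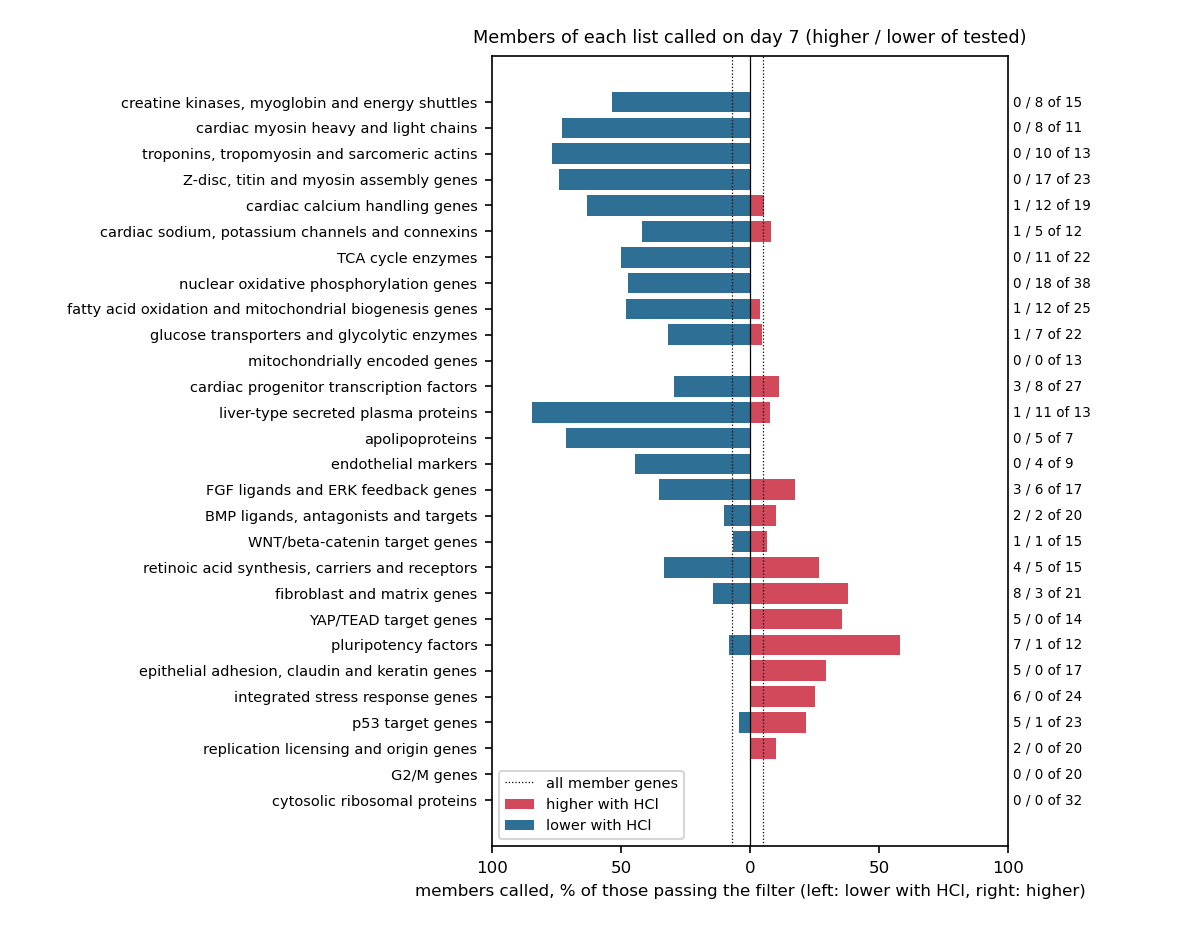
For 28 gene lists, the percentage of members passing the filter that were called lower with HCl (left, blue) and higher with HCl (right, red), with the counts higher and lower of those tested at the right. The dotted lines mark the shares over all 14533 genes (7.17% lower, 5.00% higher). Contractile, calcium, energy and liver lists reach far to the left, and pluripotency, matrix and YAP/TEAD lists to the right.

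Heart progenitor transcription factors split. Of 27 that passed the filter (30 in the list), 8 were lower with HCl (29.6%, against 7.17% of all genes). The higher ones were 3 (11.1%, against 5.00%). A separate list of chamber, sinus node and conduction identity genes had 8 lower (44.4%) and 3 higher (16.7%) of 18 (24 in the list). The values below include genes of both lists. TBX5, a T-box factor of the first heart field and left heart, had 0.09 and 1.07 FPKM with HCl, against 18.8 and 18.4 FPKM with IWP2. It was almost silent in HCl replicate 1, and its log2 fold change of -5.11 ± 0.37 (adjusted p = 3.34e-08) was -4.16 without that library and -7.68 without HCl replicate 2. TBX5 overlaps the antisense gene TBX5-AS1, and no source used here says that counting took account of strand. TBX18, a factor of the sinus node and epicardium, had 0.05 and 0.16 FPKM with HCl, against 1.52 and 4.69 FPKM with IWP2 (log2 -4.97 ± 0.72, adjusted p = 7.87e-05). The 2 IWP2 libraries of TBX18 also differ, and the value ran from -6.05 without HCl replicate 2 to -3.95 without IWP2 replicate 2, with -5.56 without IWP2 replicate 1 and -4.29 without HCl replicate 1.

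TBX2, a repressor of chamber genes in non-chamber muscle, had 2.96 and 3.83 FPKM with HCl, against 37.8 and 36.8 FPKM with IWP2 (log2 -3.50 ± 0.14, adjusted p = 3.55e-14). IRX4, a ventricular homeobox factor, had 1.09 and 1.70 FPKM with HCl, against 11.9 and 12.6 FPKM with IWP2 (log2 -3.18 ± 0.16, adjusted p = 2.08e-16). NKX2-5, the homeobox factor at the core of the heart programme, had 17.8 and 24.4 FPKM with HCl, against 93.5 and 86.2 FPKM with IWP2 (log2 -2.14 ± 0.14, adjusted p = 7.38e-10). The HCl libraries were below the IWP2 libraries in each of the 3, and no left-out library moved them past 1.5-fold. TBX20 (-1.76), TBX3 (-1.21) and HAND1 (-1.14) were lower by smaller log2 fold changes. HAND1, a factor of the first heart field, stayed abundant in both groups, with 120.2 and 119 FPKM with HCl, against 255 and 256 FPKM with IWP2.

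In the other direction, FOXC1, a forkhead factor of paraxial and second heart field mesoderm, had 36.1 and 37.9 FPKM with HCl, against 4.12 and 5.21 FPKM with IWP2 (log2 2.94 ± 0.15, adjusted p = 5.08e-14). Its relative FOXC2 had 1.88 and 2.06 FPKM with HCl, against 0.46 and 0.33 FPKM with IWP2 (log2 2.25 ± 0.47, adjusted p = 2.17e-04). TBX1, a T-box factor of the pharyngeal second heart field, had 4.73 and 4.16 FPKM with HCl, against 1.32 and 1.59 FPKM with IWP2 (log2 1.57 ± 0.15, adjusted p = 6.53e-10). These 3 did not overlap between groups. ISL1, the marker of second heart field progenitors, had 62.0 and 59.8 FPKM with HCl, against 30.5 and 32.5 FPKM with IWP2 and fell short of the size limit (log2 0.91 ± 0.09, adjusted p = 5.82e-10). GATA4, which binds with many of the factors above, differed little, with 70.0 and 67.9 FPKM with HCl, against 87.6 and 89.3 FPKM with IWP2 (95% interval -0.57 to -0.23), and HAND2 had 75.5 and 70.3 FPKM with HCl, against 71.3 and 81.1 FPKM with IWP2 (95% interval -0.29 to 0.08).

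The natriuretic peptides, hormones made by stretched or embryonic heart muscle, did not follow the sarcomere. NPPB had 35.7 and 29.4 FPKM with HCl, against 6.16 and 6.79 FPKM with IWP2 (log2 2.29 ± 0.45, adjusted p = 9.77e-04). NPPA was near the filter in both groups, with 1.12 and 2.53 FPKM with HCl, against 1.34 and 1.45 FPKM with IWP2, and was not called (adjusted p = 0.565). BMP10, a ligand of the trabecular heart, had 4.63 and 4.52 FPKM with HCl, against 0.77 and 1.56 FPKM with IWP2 (log2 1.93 ± 0.27, adjusted p = 8.96e-07). NPPB and BMP10 were thus higher in both HCl libraries while most sarcomere genes were lower.

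Some genes of signalling between cells also differed. Among WNT ligands, receptors and secretion genes, 4 of 21 (of 35 in the table) were lower (19.0%, against 7.17% of all genes) and 2 higher (9.52%, against 5.00%). The higher count was 1 without HCl replicate 1, without HCl replicate 2 or without IWP2 replicate 1. WNT2, a ligand known in mouse from the venous pole of the heart and from lung mesoderm, had 0.25 and 0.49 FPKM with HCl, against 18.5 and 16.9 FPKM with IWP2 (log2 -5.64 ± 0.44, adjusted p = 6.72e-08). WNT11, a non-canonical ligand that promotes heart formation, had 3.85 and 4.87 FPKM with HCl, against 45.1 and 44.1 FPKM with IWP2 (log2 -3.40 ± 0.15, adjusted p = 2.11e-14). Transcripts of both ligands were thus high in the cultures given the secretion inhibitor. RSPO3, which strengthens WNT signalling at the receptor, had 49.8 and 44.4 FPKM with HCl, against 125 and 112 FPKM with IWP2 (log2 -1.38 ± 0.08, adjusted p = 5.03e-15). The beta-catenin target list had 1 higher and 1 lower gene of 15 (of 24 in the table): LGR5, a target and R-spondin receptor (4.55 and 4.29 FPKM with HCl, against 0.80 and 1.12 FPKM with IWP2; log2 2.15 ± 0.23, adjusted p = 7.85e-09), and WNT11 itself. The higher count was 2 without HCl replicate 1 or without IWP2 replicate 2. The median log2 of the 15 was 0.12, and the share called, 6.67% each way, lay near those over all genes (5.00% higher, 7.17% lower).

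FGF10, a ligand of second heart field mesoderm, was among the most abundant higher genes, with 105 and 91.7 FPKM with HCl, against 18.9 and 20.4 FPKM with IWP2. All 4 libraries fell into clear ranges, and the log2 fold change was 2.28 ± 0.09 (adjusted p = 1.14e-18). Some genes that report FGF receptor signalling through ERK were lower: ETV4 had 0.68 and 0.96 FPKM with HCl, against 3.54 and 3.35 FPKM with IWP2, ETV5 3.94 and 5.46 FPKM with HCl, against 18.0 and 16.5 FPKM with IWP2, and SPRY4, a feedback inhibitor, 4.18 and 5.18 FPKM with HCl, against 16.7 and 14.7 FPKM with IWP2. Their log2 fold changes were -2.12 ± 0.19, -1.92 ± 0.33 and -1.79 ± 0.29 (adjusted p = 1.69e-10, 2.41e-04 and 1.62e-04). Over the FGF and ERK list, 3 genes were higher and 6 lower of 17 (of 23 in the table), and 8 were not called. FGF9, a ligand known in mouse from epicardium and endocardium, had the largest change of the list (0.22 and 0.28 FPKM with HCl, against 2.26 and 2.71 FPKM with IWP2; log2 -3.37 ± 0.22, adjusted p = 9.78e-14).

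Of 20 BMP pathway genes, 2 were higher and 2 lower (10.0% each way), not far from the shares over all genes (5.00% higher, 7.17% lower). BMP7 had 13.4 and 18.3 FPKM with HCl, against 55.2 and 50.05 FPKM with IWP2 (log2 -1.78 ± 0.16, adjusted p = 1.32e-07), and the antagonist GREM1 had 3.49 and 3.16 FPKM with HCl, against 0.68 and 0.82 FPKM with IWP2 (log2 2.10 ± 0.39, adjusted p = 2.05e-04). Retinoic acid genes changed in both directions, 4 higher and 5 lower of 15 (of 19 in the table). The lower count was 3 with the 4 libraries fitted alone. CRABP1, a cytosolic carrier that binds retinoic acid, had 24.2 and 21.4 FPKM with HCl, against 1.73 and 1.81 FPKM with IWP2 (log2 3.64 ± 0.22, adjusted p = 1.55e-13). ALDH1A2, the main embryonic enzyme of retinoic acid synthesis, had 1.68 and 1.88 FPKM with HCl, against 0.08 and 0.17 FPKM with IWP2 (log2 3.76 ± 0.30, adjusted p = 9.29e-12). RXRG, a nuclear receptor partner, was lower, with 0.16 and 0.63 FPKM with HCl, against 7.81 and 7.54 FPKM with IWP2 (log2 -4.37 ± 0.32, adjusted p = 5.90e-10; -3.64 and -5.62 without HCl replicate 1 and 2). DHRS3, which turns retinal back to retinol and is induced by retinoic acid, had 1.04 and 1.2 FPKM with HCl, against 4.17 and 4.36 FPKM with IWP2 (log2 -1.98 ± 0.19, adjusted p = 2.74e-10).

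Transcripts of other cell types moved too. Secreted plasma proteins of liver type, made by endoderm that differentiates beside heart mesoderm, were lower in 11 and higher in 1 of 13 that passed the filter (24 in the list). The 2 IWP2 libraries differ in these genes, and the count of lower genes was 7 without IWP2 replicate 2 and 3 when the 4 libraries were fitted alone. AFP, the fetal albumin-like protein, had 4.86 and 9.20 FPKM with HCl, against 22.2 and 162 FPKM with IWP2 (log2 -3.76 ± 0.69, adjusted p = 4.27e-04), and -1.72 without IWP2 replicate 2 and -4.57 without IWP2 replicate 1. SERPINA1, a protease inhibitor, had 0.45 and 0.72 FPKM with HCl, against 4.52 and 19.4 FPKM with IWP2 (log2 -4.41 ± 0.63, adjusted p = 5.04e-05), and -3.01 and -5.11 without those 2 libraries. AHSG, a mineral-binding carrier, had 0.77 and 0.92 FPKM with HCl, against 1.18 and 25.1 FPKM with IWP2 (log2 -4.0 ± 1.0, adjusted p = 0.00459), and was not called without IWP2 replicate 2 (-0.54; -4.94 without IWP2 replicate 1). The IWP2 libraries were closer to each other in TTR, a thyroid hormone carrier, with 11.1 and 9.96 FPKM with HCl, against 32.2 and 51.5 FPKM with IWP2 (log2 -2.03 ± 0.30, adjusted p = 9.86e-05). C3, the complement protein, was the higher gene (4.95 and 4.04 FPKM with HCl, against 0.27 and 0.55 FPKM with IWP2; log2 3.41 ± 0.37, adjusted p = 2.00e-06).

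Apolipoproteins were lower in 5 of 7 (of 12 in the table), and in 2 with the 4 libraries fitted alone. APOA2 had 5.27 and 8.95 FPKM with HCl, against 45.8 and 69.3 FPKM with IWP2 (log2 -3.07 ± 0.34, adjusted p = 5.60e-06), and its groups were apart. HHEX, a homeobox factor of foregut and blood vessel precursors, had 1.2 and 1.34 FPKM with HCl, against 9.31 and 9.01 FPKM with IWP2 (log2 -2.89 ± 0.19, adjusted p = 1.59e-12). Among 9 (of 21 in the table) endothelial markers 4 were lower, among them KDR, a VEGF receptor that also marks heart progenitors, which had 124 and 95.9 FPKM with HCl, against 234 and 215 FPKM with IWP2 (log2 -1.08 ± 0.16, adjusted p = 6.23e-05) and fell short of the size limit without HCl replicate 2 (-0.91). Epicardial and mesothelial markers were higher in 4 and lower in 2 of 11 (of 16 in the table). The lower count was 1 with the 4 libraries fitted alone. WT1, an epicardial factor, had 0.15 and 0.11 FPKM with HCl, against 1.24 and 2.25 FPKM with IWP2 (log2 -3.78 ± 0.32, adjusted p = 1.12e-10), while TCF21, another epicardial marker, was called higher (log2 1.63). CALB2, a calcium-binding protein of mesothelium and neurons, had 32.9 and 38.4 FPKM with HCl, against 4.99 and 3.99 FPKM with IWP2 (log2 2.95 ± 0.17, adjusted p = 6.88e-15).

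Fibroblast and matrix genes were higher in 8 and lower in 3 of 21 (of 25 in the table). MFAP4, a microfibril protein, had 57.8 and 51.0 FPKM with HCl, against 6.81 and 9.21 FPKM with IWP2 (log2 2.72 ± 0.13, adjusted p = 1.57e-13), and PDGFRA, a receptor of mesenchyme and early mesoderm, had 62.5 and 56.9 FPKM with HCl, against 25.7 and 25.9 FPKM with IWP2 (log2 1.17 ± 0.09, adjusted p = 1.31e-12). The lower count was 1 without IWP2 replicate 2. LOX, which cross-links collagen, was lower, with 0.59 and 0.67 FPKM with HCl, against 1.87 and 2.73 FPKM with IWP2 (log2 -1.91 ± 0.16, adjusted p = 2.92e-11). The 6 fibroblast and matrix markers summed further above did not separate the groups. The 25 genes of this list summed to 1881.5 and 1759.3 FPKM with HCl and 1251.1 and 1523.7 FPKM with IWP2, so the groups were apart in that sum. YAP/TEAD targets were higher in 5 and lower in 0 of 14 (of 15 in the table): CYR61, CTGF and AMOTL1 had log2 fold changes of 1.30 ± 0.10, 1.18 ± 0.11 and 1.22 ± 0.08 (adjusted p = 1.64e-10, 7.62e-09 and 2.95e-13), CYR61 with 67.3 and 68.8 FPKM with HCl, against 26.8 and 27.0 FPKM with IWP2.

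Genes of undifferentiated cells were higher in 7 and lower in 1 of 12 (of 18 in the table). POU5F1, the core pluripotency factor, had 5.30 and 5.78 FPKM with HCl, against 0.27 and 0.39 FPKM with IWP2 (log2 4.01 ± 0.84, adjusted p = 0.0013). Undifferentiated cells of the same table had 738 and 769.7 FPKM, so the level was small in both groups. SOX2, its partner and a neural factor, had 1.80 and 1.88 FPKM with HCl, against 0.02 and 0.09 FPKM with IWP2 (log2 4.93 ± 0.84, adjusted p = 2.02e-04; 4.28 and 6.16 without IWP2 replicate 1 and 2). LIN28A, an RNA-binding protein of embryonic cells that blocks let-7, was abundant, with 245 and 229 FPKM with HCl, against 87.3 and 89.6 FPKM with IWP2 (log2 1.38 ± 0.09, adjusted p = 2.55e-12), and its relative LIN28B had 62.2 and 56.2 FPKM with HCl, against 19.9 and 21.5 FPKM with IWP2 (log2 1.47 ± 0.09, adjusted p = 1.27e-13). TDGF1, a NODAL co-receptor, was the lower gene (4.84 and 4.67 FPKM with HCl, against 12.6 and 11.5 FPKM with IWP2; log2 -1.39 ± 0.18, adjusted p = 1.38e-05). POU5F1 overlaps TCF19 and TDGF1 overlaps LRRC2 on the opposite strand. Epithelial genes were higher in 5 of 17 (of 22 in the table) and lower in 0, led by GRHL2, a factor of epithelial identity (2.12 and 2.68 FPKM with HCl, against 0.62 and 0.69 FPKM with IWP2; log2 1.81 ± 0.20, adjusted p = 8.62e-09). CDH1, the epithelial cadherin, had 10.6 and 9.98 FPKM with HCl, against 3.95 and 5.15 FPKM with IWP2 (log2 1.13 ± 0.18, adjusted p = 7.75e-05), and fell under the size limit without IWP2 replicate 1 (0.96).

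Neural and ectoderm markers changed in both directions, with 5 higher and 3 lower of 9 (19 in the table). SIX3, a homeobox factor of the forebrain and eye, had 1.13 and 1.2 FPKM with HCl, against 0.02 and 0.11 FPKM with IWP2 (log2 4.11 ± 0.59, adjusted p = 1.07e-06; 3.39 and 5.58 without IWP2 replicate 1 and 2). NES, an intermediate filament of neural and muscle precursors, had 75.8 and 85.9 FPKM with HCl, against 187 and 179.7 FPKM with IWP2 (log2 -1.22 ± 0.09, adjusted p = 4.33e-13). Both genes were separate between the groups, in opposite directions.

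Stress and growth lists moved less. Of 24 (of 30 in the table) integrated stress response genes 6 were higher, led by CBS, which makes cystathionine (24.4 and 22.9 FPKM with HCl, against 7.33 and 8.15 FPKM with IWP2; log2 1.57 ± 0.09, adjusted p = 1.40e-15), and PSAT1, a serine synthesis enzyme (25.4 and 23.4 FPKM with HCl, against 9.09 and 9.78 FPKM with IWP2; log2 1.33 ± 0.10, adjusted p = 1.22e-12), with GDF15, a stress hormone, at 1.69 and 1.2 FPKM with HCl, against 0.51 and 0.51 FPKM with IWP2 (log2 1.46 ± 0.34, adjusted p = 7.05e-04). None of 21 ER chaperone genes was called, and the log2 fold changes spanned -0.52 to 0.51, with 6 above 0 and 5 below 0 at an adjusted p under 0.05 of any size by edgeR. Of 23 (of 24 in the table) p53 targets 5 were higher and 1 lower. CDKN1A, the p53-induced inhibitor of cell cycle kinases, had 6.15 and 5.99 FPKM with HCl, against 1.86 and 2.46 FPKM with IWP2 (log2 1.45 ± 0.19, adjusted p = 1.29e-06). Cell cycle lists lay mostly above 0, in large part under the size limit: 19 of 20 G2/M genes and 20 of 20 replication genes had a log2 above 0, with medians of 0.61 and 0.73, and 0 and 2 were called. The count of called replication genes was 4 without HCl replicate 1. At an adjusted p under 0.05 of any size, 18 of the G2/M genes lay above 0. The 32 cytosolic ribosomal protein genes all had a log2 above 0 (median 0.48) and none was called, though 30 passed the adjusted p alone.

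The 12 largest rises and the 12 largest falls, among called genes that averaged 5 FPKM or more in the group with the higher level, show what the lists leave out. Among rises, FOXQ1, a forkhead factor, had 6.07 and 4.63 FPKM with HCl, against 0.14 and 0.36 FPKM with IWP2 (log2 4.34 ± 0.38, adjusted p = 4.39e-11; 5.14 without IWP2 replicate 2). C12orf39, which encodes the peptide hormone spexin, had 8.61 and 7.27 FPKM with HCl, against 0.32 and 0.48 FPKM with IWP2 (log2 4.26 ± 0.20, adjusted p = 5.86e-17). MAOA, which breaks down amine transmitters, had 12.4 and 13.2 FPKM with HCl, against 1.2 and 1.93 FPKM with IWP2 (log2 2.99 ± 0.16, adjusted p = 6.96e-16). None of the 12 reached more than 26.3 FPKM in an HCl library, the level of SMOC1 in replicate 2. SMOC1, a secreted BMP antagonist, had 25.6 and 26.3 FPKM with HCl, against 2.97 and 3.33 FPKM with IWP2 (log2 3.00 ± 0.10, adjusted p = 2.56e-20). VRTN, a factor linked to vertebra number in pigs, had 10.6 and 8.25 FPKM with HCl, against 0.95 and 0.99 FPKM with IWP2 (log2 3.23 ± 0.25, adjusted p = 9.86e-10). The others were POU5F1 and CRABP1, described above, SYNDIG1L (3.87), MEIS1-AS3 (3.51), which is antisense to MEIS1, ATP6V0D2 (3.45), a proton pump subunit gene that overlaps PSKH2, DPEP3 (3.14) and C1orf168 (3.00), given as log2 fold changes.

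Among falls, CCDC80, a secreted matrix protein, was abundant with IWP2 and had 7.21 and 11.6 FPKM with HCl, against 218 and 205 FPKM with IWP2 (log2 -4.54 ± 0.17, adjusted p = 1.31e-12). VEGFC, the ligand of lymphatic vessel growth, had 0.35 and 0.98 FPKM with HCl, against 18.3 and 18.4 FPKM with IWP2 (log2 -4.85 ± 0.28, adjusted p = 1.23e-10; -4.25 and -5.74 without HCl replicate 1 and 2). POU4F1, a POU factor best known from sensory neurons, had 0.47 and 0.75 FPKM with HCl, against 15.9 and 19.0 FPKM with IWP2 (log2 -4.90 ± 0.17, adjusted p = 2.44e-17). In all 3 the groups were far apart. RRAD, a small GTPase that restrains L-type calcium channels in heart, had 0.94 and 2.13 FPKM with HCl, against 42.4 and 38.7 FPKM with IWP2 (log2 -4.79 ± 0.49, adjusted p = 1.48e-06; -5.47 without HCl replicate 2). MASP1, a protease of the lectin complement pathway, had 0.27 and 1.75 FPKM with HCl, against 26.2 and 24.1 FPKM with IWP2 (log2 -4.71 ± 0.45, adjusted p = 7.69e-07; -3.88 and -6.59 without HCl replicate 1 and 2). AC096579.7, a gene without a known role that overlaps immunoglobulin kappa joining segments, had 0 counts in both HCl libraries and 7.41 and 5.95 FPKM with IWP2, which makes it at least 59.2-fold lower against a floor of 3 counts per library (adjusted p = 2.57e-13).

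CTD-2545M3.8, an unnamed transcript, was the most abundant of the 12 falls, with 7.39 and 58.0 FPKM with HCl, against 1023 and 944 FPKM with IWP2. Its 2 HCl libraries differ by several fold, and the log2 of -4.98 ± 0.57 (adjusted p = 5.73e-06) was -4.12 without HCl replicate 1 and -7.11 without HCl replicate 2. The remaining falls were TBX5 and WNT2, described above, MIR4506 (-4.68), which lies inside ASB2 on the same strand, RP11-807H17.1 (-5.33) and RP11-572C15.6 (-4.60). The values of the last 3 without HCl replicate 2 were -6.91, -5.95 and -5.75, and without HCl replicate 1 MIR4506 had -3.76 and RP11-572C15.6 -3.91.

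Most genes called on day 7 were not called on day 11. Of the 14533 genes, 283 were higher (1.95%) and 441 lower (3.03%) with HCl than with IWP2 on day 11. Calls on both days were a small part of each set, though above the shares over all genes. Higher on both days were 53 genes, 7.29% of the higher genes of day 7 (against 1.95% of all genes). They were 18.7% of the higher genes of day 11 (against 5.00%). Lower on both were 96 genes, 9.21% of the lower genes of day 7 (against 3.03%). They were 21.8% of the lower genes of day 11 (against 7.17%). Opposite calls were made in 86 of the 727 higher genes (11.8%, against 3.03% of all genes). They were also made in 79 of the 1042 lower genes (7.58%, against 1.95%). The difference between the days was tested as an interaction, the day 7 log2 fold change minus that of day 11, and 2851 genes were called (19.6%), 541 of the 727 higher genes (74.4%) and 849 of the 1042 lower genes (81.5%) among them. The median log2 fold change of the higher genes was 1.44 on day 7 and -0.22 on day 11, and that of the lower genes -1.60 and 0.18. The genes were chosen by their difference on day 7, and the interaction uses the same day 7 libraries, so these shares and medians are a description.

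**Figure D4:**
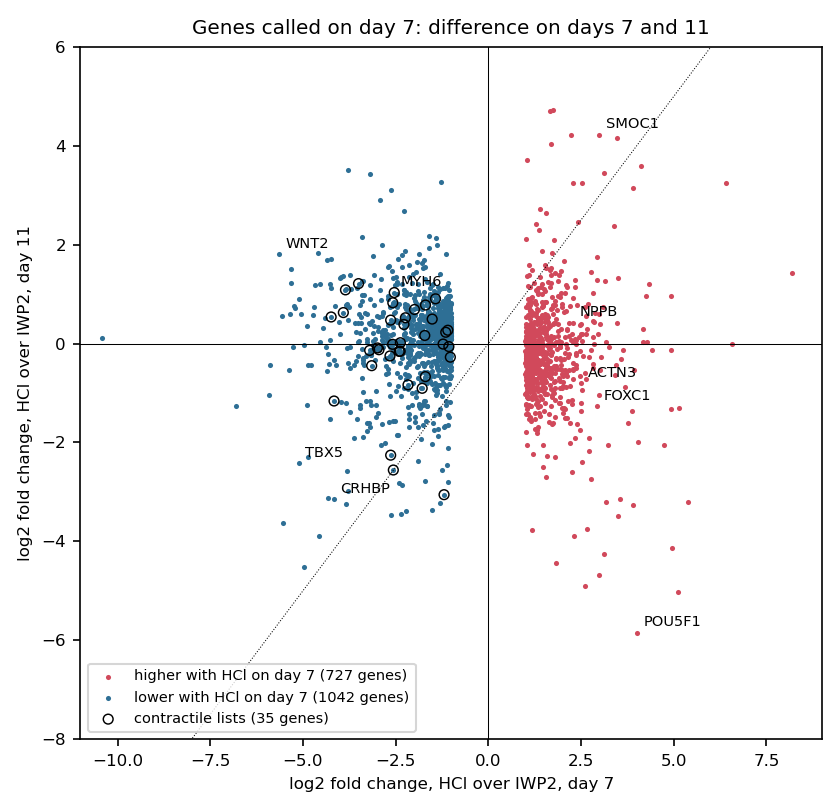
Each point is 1 of the 1769 genes called on day 7, with its log2 fold change, HCl over IWP2, on day 7 across and on day 11 upward. The dotted diagonal marks equal differences, and circles mark the 35 lower contractile genes. The circles lie on both sides of 0 on day 11, WNT2 and MYH6 are above it, and TBX5 and SMOC1 keep their direction.

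Contractile genes were among those whose difference changed with the day. Summed over the 3 lists the level was 2856 and 3541 FPKM with HCl, against 10699 and 9884 FPKM with IWP2 on day 7, and 10325 and 10274 FPKM with HCl, against 7834 and 8008 FPKM with IWP2 on day 11. The order of the sums was thus the opposite on day 11, with most of that in the myosin list, which had 6494 and 6596 FPKM with HCl and 4198 and 4295 FPKM with IWP2. The list of Z-disc, titin and myosin assembly genes kept its order. On day 11 it had 1145 and 1133 FPKM with HCl and 1278 and 1295 FPKM with IWP2. MYH6 had 1403 and 1460.2 FPKM with HCl and 685 and 773 FPKM with IWP2 on day 11 (interaction log2 -3.57 ± 0.93, adjusted p = 0.00623). MYL3 had 663 and 657 FPKM with HCl and 318 and 330.3 FPKM with IWP2 (interaction log2 -4.94 ± 0.57, adjusted p = 5.61e-06), and was higher with HCl on day 11. TNNT2, with 242 and 219 FPKM with HCl and 235 and 241 FPKM with IWP2, overlapped between the groups. Of the 47 contractile genes, 35 had a called interaction, and on day 11 the median log2 was 0.02, with 2 genes higher and 5 lower. Liver-type plasma proteins had called interactions in 12 of 13, with a median log2 of 0.52 on day 11, apolipoproteins in 6 of 7 (median 0.87) and nuclear oxidative phosphorylation genes in 29 of 38 (median 0.28).

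Some genes kept their direction. TBX5 had 5.73 and 4.90 FPKM with HCl and 29.2 and 30.0 FPKM with IWP2 on day 11 (log2 -2.42 ± 0.27, adjusted p = 7.41e-06). TBX18 had 1.57 and 0.70 FPKM with HCl and 31.7 and 22.9 FPKM with IWP2 (log2 -4.52 ± 0.44, adjusted p = 4.10e-06), and DES 13.8 and 12.0 FPKM with HCl and 85.1 and 73.5 FPKM with IWP2 (log2 -2.56 ± 0.22, adjusted p = 4.26e-07). In these 3 the groups stayed apart on both days. SMOC1 kept the other direction, with 11.3 and 10.4 FPKM with HCl and 0.64 and 0.57 FPKM with IWP2 (log2 4.23 ± 0.13, adjusted p = 8.53e-21). Others turned: WNT11 had 92.8 and 93.2 FPKM with HCl and 22.1 and 21.6 FPKM with IWP2 (interaction log2 -5.55 ± 0.19, adjusted p = 9.46e-16), and LPL 19.5 and 19.3 FPKM with HCl and 1.94 and 1.59 FPKM with IWP2 (interaction log2 -7.31 ± 0.32, adjusted p = 9.14e-15). FOXC1 had 3.56 and 4.63 FPKM with HCl and 10.8 and 9.75 FPKM with IWP2 (interaction log2 4.21 ± 0.21, adjusted p = 9.43e-14). NPPA, not called on day 7, had 0.40 and 0.15 FPKM with HCl and 10.6 and 8.92 FPKM with IWP2 on day 11 (log2 -5.03 ± 0.43, adjusted p = 1.11e-08).

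The 6 largest interactions under the same conditions were those of AC096579.7, POU5F1, WNT2, RP11-807H17.1, RP11-572C15.6 and MIR4506. WNT2 had 30.6 and 32.4 FPKM with HCl and 8.75 and 9.94 FPKM with IWP2 on day 11 (interaction log2 -7.45 ± 0.53, adjusted p = 2.46e-08), so its order was the opposite of day 7. POU5F1 had 0.02 and 0.04 FPKM with HCl and 3.88 and 0.02 FPKM with IWP2 (interaction log2 9.86 ± 1.78, adjusted p = 3.99e-04). The 2 IWP2 libraries of day 11 are far apart in POU5F1, and without IWP2 replicate 1 of day 11 the interaction was 3.42 with an adjusted p of 0.302. It also missed the threshold when the 8 libraries of HCl and IWP2 were fitted alone (adjusted p = 0.0583).

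Levels of earlier days come from another deposited table and are set beside those of day 7 as values only, with no test. On day 5 MYH6 had 3.14 and 4.37 FPKM with HCl and 55.4 and 56.0 FPKM with IWP2, and TNNT2 had 0.63 and 0.86 FPKM with HCl and 60.8 and 51.8 FPKM with IWP2, so IWP2 was already above HCl then. NPPB was at 1456 and 1426 FPKM with HCl and 7.42 and 8.18 FPKM with IWP2 on day 5, far above its day 7 level with HCl. CRABP1 had 121 and 105 FPKM with HCl and 17.7 and 14.3 FPKM with IWP2 on day 5 and 293 and 291 FPKM with HCl and 241 and 228 FPKM with IWP2 on day 3, so its level was lower on each later day in both groups. FGF10 stood the other way round on day 5, with 9.06 and 10.6 FPKM with HCl and 25.5 and 30.0 FPKM with IWP2. COL1A1, the fibrillar collagen chain, did so too, with 44.7 and 42.5 FPKM with HCl and 224 and 230.3 FPKM with IWP2 on day 5, and 151 and 130.1 FPKM with HCl, against 51.5 and 74.4 FPKM with IWP2 on day 7 (log2 1.11 ± 0.19, adjusted p = 2.00e-04; 0.88, under the size limit, without IWP2 replicate 1). In the differentiation control of day 7, MYH6 had 31.1 and 40.2 FPKM, TBX5 6.25 and 7.78, FGF10 7.13 and 7.11 and NKX2-5 2.23 and 2.22 FPKM. The HCl libraries exceeded the control in MYH6, FGF10 and NKX2-5, and lay below it in TBX5.

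**Figure D5:**
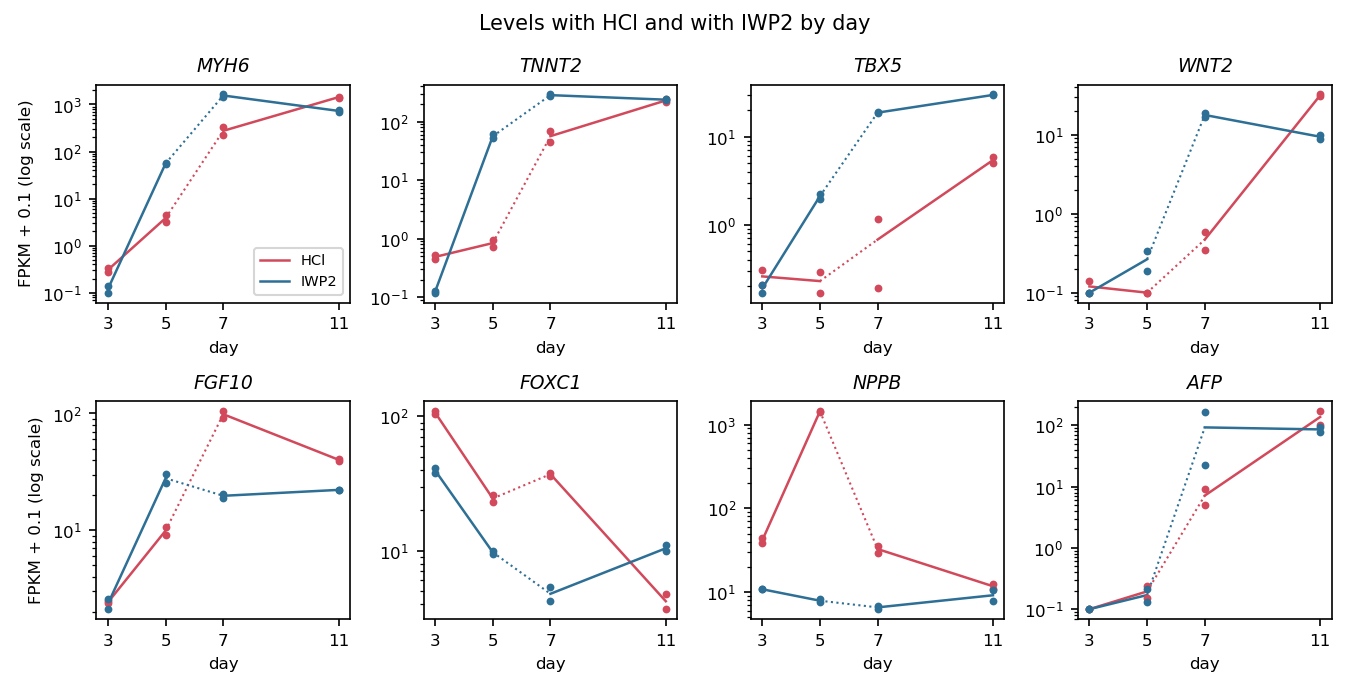
FPKM plus 0.1 on a log scale in each library (points) and as the line through group means for HCl and IWP2 on days 3, 5, 7 and 11, in 8 genes. The dotted stretch joins days 5 and 7, which come from separate tables. MYH6 and TNNT2 are higher with IWP2 on days 5 and 7 and level or higher with HCl on day 11, and NPPB peaks with HCl on day 5 (1456 and 1426 FPKM).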

How the data were processed

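RNA was extracted with RNAiso Plus and made into libraries with the VAHTS Universal V8 kit, per the labels' protocols. Reads were trimmed with cutadapt 1.9.1, aligned with HISAT2 2.0.1 and counted with HTSeq 0.6.1 on GRCh37, per the submitters' processing notes. The authors deposited whole-number counts and FPKM per gene, and FPKM recomputed from their counts and gene lengths differed by at most 0.005. Use of strand in counting is not given in the sources used here, and 67 of the 234 named genes overlap another gene on the opposite strand.

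The deposited counts of all 26 libraries in the table of days 7, 11 and 0 (14090004 to 22796553 per library) were fitted with edgeR 4.0.16 in R 4.3.3 (TMM scaling, robust quasi-likelihood test, 1 mean per group) over 18451 genes with at least 1 FPKM in 2 libraries. P-values were adjusted by the Benjamini-Hochberg method over these genes. Each SE was derived from the test, as the size of the log2 fold change over the square root of its F statistic. Intervals are at the 95% level and were built from these SEs with the t distribution. Alternatives were DESeq2 1.42.0, limma 3.58.1, other scalings and filters, fewer libraries, each library left out, and a replicate block.

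Replicate numbers did not pair the libraries. The correlation of deviations of same-numbered HCl and IWP2 libraries of day 7 was -0.02, and it ran from -0.04 to 0.05 over pairs of day 7 groups. Named genes were the 12 largest rises and falls averaging 5 FPKM or more in the group with the higher level, up to 4 called genes of each list with others given as values, and the 6 largest interactions. The members and lists were chosen with earlier results of these data known. Markers were summed as deposited FPKM. Promoters are RefSeq's, on GRCh38.p14, and no coordinates were converted. Some results are not reported here.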

Additional observations from a re-analysis of the deposited data

Results flagged for a closer look

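The difference between HCl and IWP2 was itself different on days 7 and 11 in 2851 genes, by edgeR's interaction test with Benjamini-Hochberg adjustment. Of the 12 largest rises and 12 largest falls of day 7, 22 genes were among these. Values are the log2 fold change (HCl over IWP2) of day 7 minus that of day 11. For genes higher with HCl on day 7 the interaction was 9.86 for POU5F1, 5.28 for VRTN, 5.23 for SYNDIG1L, 3.88 for ATP6V0D2, 3.77 for CRABP1, 3.53 for C1orf168, 3.31 for C12orf39, 3.14 for FOXQ1 and 2.4 for MAOA. SMOC1 was higher with HCl on both days and more so on day 11, at -1.23. For genes lower with HCl on day 7 it was -7.45 for WNT2, -6.84 for RP11-807H17.1, -6.43 for RP11-572C15.6, -5.87 for MIR4506, -5.75 for CCDC80, -5.44 for MASP1, -4.94 for CTD-2545M3.8, -4.41 for VEGFC, -4.35 for RRAD, -3.65 for POU4F1 and -2.69 for TBX5. AC096579.7 had a fitted value of -10.5 with both HCl libraries of day 7 at 0 counts, and the size of such a value depends on the fit's prior count. The value of POU5F1 was 3.42 and not called without IWP2 replicate 1 of day 11.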

How the results depend on the processing

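The count of 1769 called genes (727 higher, 1042 lower) stayed within 1.5 times under DESeq2, RLE scaling, a fit over the 14533 genes only, limma on log2(FPKM + 0.1), fits of the day 7 or the 4 libraries alone, the mitochondrially encoded genes left out and each library left out. With no filter it was 2944 (1146 higher, 1798 lower), counted over all genes tested, which are more. Counted over the 14533 genes alone, the fit without a filter gave 1751 (649 higher, 1102 lower). The count was 1064 (407 and 657) by limma on log2(FPKM + 1), which compresses low levels. At a log2 of at least 0.58 it was 3757 (1765 and 1992), and 5199 interactions were called. Leaving out 1 library gave 1604 to 1873 called genes, 640 to 766 higher and 964 to 1131 lower, and 2664 to 2937 interactions. The replicate numbers did not pair the libraries, and with a replicate block 1762 genes were called (722 higher, 1040 lower) with 2847 interactions. Over the 234 named genes and all alternatives, 83 values lost their call, 8 gained one and 1 turned round, that of APOA4, which ran from -5.22 without IWP2 replicate 1 to 0.69 without IWP2 replicate 2 (the cause was not tested). By limma on log2(FPKM + 1), CS, GDF15, CD36 and STIM1 fell under the size limit, and the higher counts were 3 for the integrated stress response and for neural markers, 2 for p53 targets and 1 for FGF genes. With 2 libraries a group, genes at under 1 FPKM rest on few counts, and where 1 library was left out the lone library is assumed to vary like the other groups.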
